A study of Humulus lupulus with 6 samples.

Results

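Leaf and growing stem of hop (Humulus lupulus, cultivar Cascade) were compared at 10430 genes whose assembled models had introns and nearly the same length in both tissues. They were taken from 37202 loci with a model in leaf and in stem. A locus here is a stretch of a contig where a leaf and a stem gene model lie on 1 strand and overlap by 1 or more exonic bases. A plus or minus in brackets after a position gives that strand. It was kept where each tissue had exactly 1 model, where both models had at least 2 exons after overlapping exons were merged, and where the shorter model was at least 90% as long as the longer. Of 29401 loci with 1 model per tissue, 17673 had introns in both and 10430 of these matched in length. Of the multi-exon loci that did not match, 4833 had the shorter model in leaf and 2410 in stem. The kept loci held 61.7% of the fragments counted in leaf and 59.1% of those counted in stem.

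The leaves were young, the stems were actively growing, and both came from untreated glasshouse plants of this cultivar that were sprayed only against insects and fungi. The labels list 2 samples for each tissue, but each tissue has a single column of counts in the tables used, and the protocol text speaks of 1 library for each. The 2 columns held 162799212 counted fragments in leaf and 125454712 in stem. No spread between plants could be estimated, so every difference has no replicate check and no p-value is given. In bulk tissue, fewer cells of a type and less RNA per cell cannot be told apart.

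A young leaf is mainly a photosynthetic organ, and much of its messenger RNA in most plants codes for the light-harvesting and carbon-fixing apparatus. A growing stem elongates, lays down cell walls and differentiates the vessels and fibres that carry water and hold the shoot up. Introns are removed from a transcript by splicing, and plant genes differ widely in how many they carry. The tables give gene numbers without names, and 0 of these numbers matched the RefSeq gene table for another hop assembly. Neither the functions of the loci nor the leaf and stem markers were therefore checked here, and loci are described by position, structure and level.

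Most loci that could be compared differed by less than 4-fold, and under the scaling used larger differences were more often in favour of leaf. Counts were expressed as CPM, the usual rescaling of a count to a fixed total of fragments, scaled by TMM factors (trimmed mean of M values, which centre the bulk of the loci) of 0.881 for leaf and 1.13 for stem. A locus was compared where the higher tissue reached 10 CPM, which 7538 of the 10430 loci did. A difference of 4-fold or more is called higher below. By that limit 945 loci were higher in leaf (12.5%) and 459 were so in stem (6.09%). Another 3835 loci (50.9%) differed by less than 2-fold, and 2299 lay between 2-fold and 4-fold. By the same limits, 17.9% of 15958 compared loci among all those with a model in both tissues were higher in leaf and 10.5% higher in stem. Among 997 single-exon loci of matched length the shares were 22.0% and 12.1%. Each set was scaled by its own TMM factors, so the shares are not on the same scale. For leaf and stem these were 0.824 and 1.21 for all loci, and 0.901 and 1.11 for single-exon loci. In the set of all loci, counts were summed over the models of a locus. Under its own factors, each set had the larger share in leaf.

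**Figure D1:**
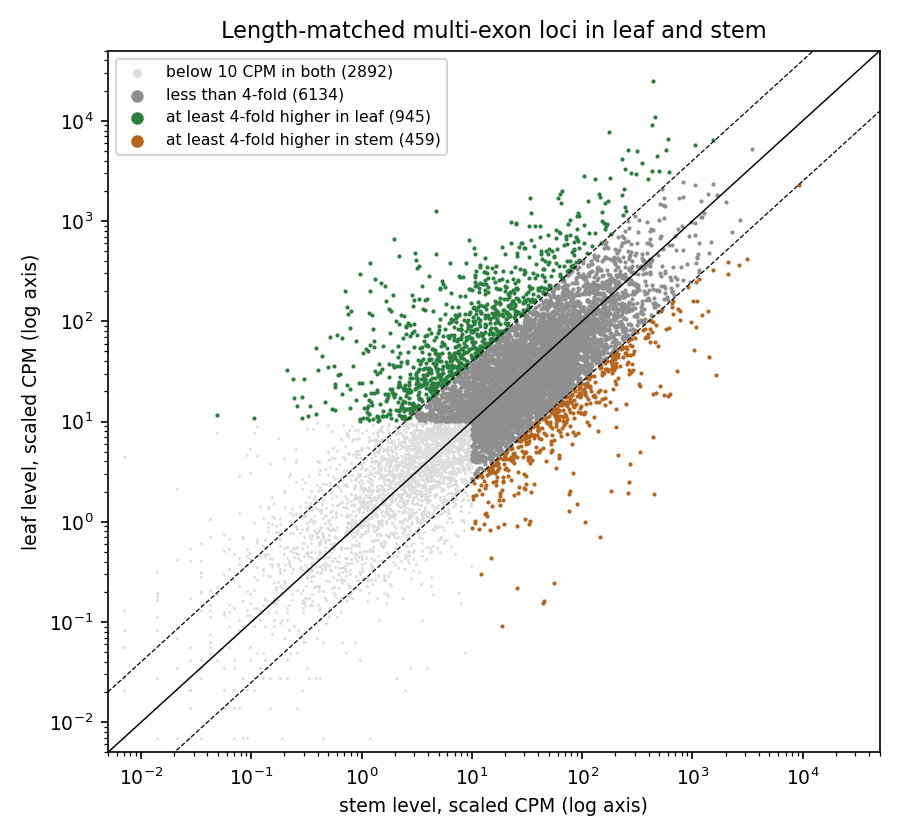
Scaled CPM in stem (horizontal) and leaf (vertical) of the kept loci, both on log axes; the solid line marks equality and the dashed lines a 4-fold difference, and 8 loci with a count of 0 are not drawn. The 945 loci higher in leaf spread farther beyond their dashed line than the 459 higher in stem, which mostly lie close to theirs.

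The balance of the directions depended on the scaling. Leaf took 67.3% of the 1404 calls. With table totals alone and no factors, leaf had 719 of the calls and stem 783, a leaf share of 47.9%, and the median log2 ratio of leaf over stem went from -0.02 to -0.43. With TMM factors from all loci that had a model in both tissues, leaf had 1089 and stem 333, a leaf share of 76.6%. Directions below are relative to the factors of the kept loci.

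Differences in favour of leaf were also the larger ones. The median fold was 7.92 among the loci higher in leaf and 5.48 among those higher in stem. Between 4-fold and 10-fold lay 589 of the leaf loci and 373 of the stem loci. From 10-fold to 30-fold there were 252 and 59, from 30-fold to 100-fold 76 and 17, and above 100-fold 28 and 10. With a limit of 8-fold in place of 4-fold, leaf took 79.8% of the calls. A kept locus needs an assembled model in both tissues, so loci silent in either could hardly enter. The lower level was under 1 CPM at 43 leaf loci and 17 stem loci, and it was 10 CPM or more at 421 and 232. The lowest count at any called locus was 13 in leaf and 7 in stem, so no fold rested on a count of 0.

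The loci higher in leaf took 25.2% of all leaf fragments and 3.05% of stem fragments. Those higher in stem made up 9.84% of the fragments in that tissue, against 1.22% in leaf. The 10 most abundant leaf loci alone held 7.62% of leaf fragments, against 0.665% in stem, and the 10 most abundant stem loci held 3.0% of stem fragments, against 0.387% in leaf. Typical levels were alike on both sides, with a median of 74.4 CPM in leaf for the former and 66.5 CPM in stem for the latter. Their medians in the lower tissue were 7.93 and 10.4 CPM.

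The largest differences in favour of leaf were at loci that were abundant in leaf and barely counted in stem. Each is given with its fragment counts and a 95% interval of the fold that covers counting error only. A 2-exon locus spanning 32631 to 34128 of contig 008229F (minus, leaf model STRG.49280) was counted 94931 times in leaf and 278 times in stem. That is 662 and 1.95 CPM, a 339-fold difference (301 to 383), on models of 860 and 856 bases with identical splice borders. A 7-exon locus at the first base of contig 004254F (1 to 4671, minus strand) had leaf and stem counts of 55344 and 169, a 325-fold difference (279 to 380). A 3-exon locus spanning 881011 to 883362 of 000678F (minus) had 42223 and 139, 301-fold (255 to 359). The next was a 2-exon locus spanning 19992 to 21058 of 004515F (plus), counted 28678 times in leaf and 100 times in stem, 285-fold (234 to 350). The 5-exon locus spanning 478274 to 480874 of 002910F (plus) reached 1269 CPM in leaf and 4.76 CPM in stem, 266-fold (247 to 288). Intervals of neighbours in this list overlap, so their order is not fixed, and only those of the first and the last of the 5 are apart.

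In favour of stem, the 5 largest folds were at loci with 2 to 8 exons. The 2-exon locus spanning 226180 to 226785 of contig 003373F (plus, stem model STRG.39140) was counted 6263 times in stem and 22 times in leaf, 287-fold (189 to 458). A 3-exon locus spanning 149720 to 150550 of 001993F (minus) had 6418 and 23, 281-fold (187 to 444), and exons on the other strand overlap it. Another spanning 72640 to 73371 of 009264F (minus) had 2665 and 13, 207-fold (121 to 389). These 3 models covered 467, 599 and 525 bases in stem. The 8-exon locus spanning 657953 to 661331 of 000695F (plus) had 7904 and 35, 228-fold (163 to 327). The most abundant of the 5 was a 3-exon locus spanning 83416 to 85561 of 008100F (minus), with 445 CPM in stem and 1.89 CPM in leaf, 236-fold (209 to 266). Its models were also the longest of the 5, with 1845 bases in leaf and 1955 in stem. All 5 intervals overlap, so no order among these stem loci is shown.

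The most abundant loci higher in leaf were shorter than 2 kb of exon sequence. A 3-exon locus spanning 635916 to 637000 of contig 000046F (plus) stood far above all others, at 24760 CPM in leaf and 441 CPM in stem, 56.1-fold (55.7 to 56.5). Per kb of its model, it reached 35677 CPM in leaf, against 6854 for the next, a 4-exon locus spanning 492118 to 494620 of 001329F (minus). That locus had 10809 CPM in leaf and 457 in stem, 23.6-fold. A 10-exon locus spanning 3948739 to 3952268 of 000004F (plus) came next per kb, with 7750 CPM in leaf and 177 in stem, 43.8-fold. The 4-exon locus spanning 15204 to 17615 of 002397F (minus) had 9011 and 430 CPM, 20.9-fold, and the 5-exon locus spanning 558097 to 560354 of 000026F (minus) 6660 and 605 CPM, 11.01-fold. Exons on the other strand overlap the loci on 000004F and 002397F. These 5 loci still had 177 to 605 CPM in stem, so they were plentiful in both tissues.

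The most abundant loci higher in stem had modest folds. The first, a 2-exon locus spanning 160597 to 162779 of contig 005160F (plus), reached 9309 CPM in stem and 2293 CPM in leaf, 4.06-fold (4.04 to 4.08), barely past the limit. Per base of model its fold was 4.39, but with factors from all loci its log2 ratio of leaf over stem was -1.83, under the limit. A 16-exon locus spanning 226711 to 234647 of 005266F (minus) had 3128 CPM in stem and 415 in leaf, 7.53-fold. A 4-exon locus spanning 44372 to 46997 of 001599F (minus) had 2619 and 367 CPM, 7.13-fold. On 002041F, an 8-exon locus at 402043 to 404982 (minus strand) had 2121 and 294 CPM, 7.22-fold. The 3-exon locus spanning 166583 to 167516 of 001241F (plus), with 2091 and 386 CPM, was 5.41-fold higher in stem. Per kb it was the second of the stem loci, at 3202 CPM, since its model covers only 653 bases.

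**Figure D2:**
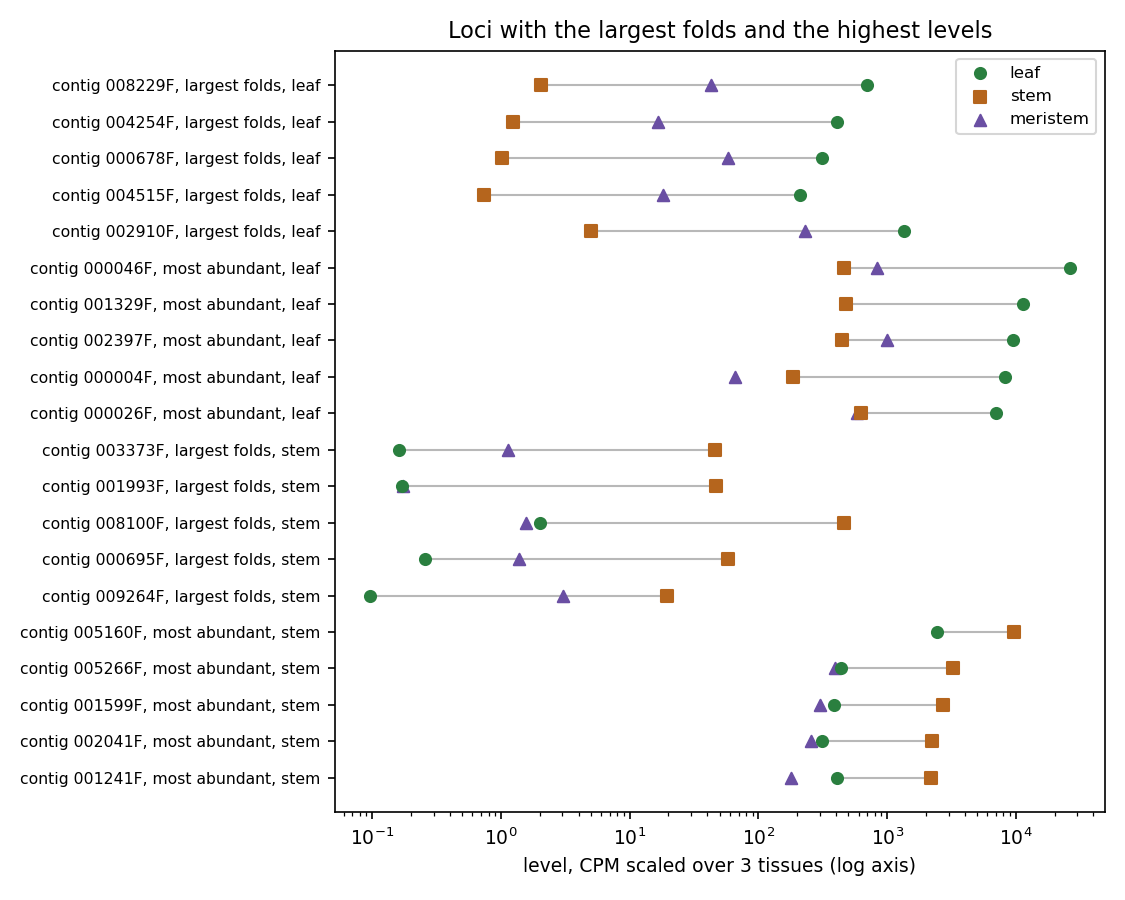
Levels in leaf (circles), stem (squares) and, where a matched model exists, apical meristem (triangles) for the 5 largest folds and the 5 most abundant loci of each direction, as CPM scaled over the 3 tissues on a log axis. The most abundant loci are high in both leaf and stem, while the largest folds have a lower tissue at or under about 5 CPM.

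Abundant loci without a large difference existed as well. The highest among those within 2-fold was a 4-exon locus spanning 1715676 to 1718329 of contig 000113F (plus), with 5277 CPM in leaf and 3448 in stem, 1.53-fold. It was followed by a 6-exon locus spanning 633437 to 638300 of 000129F (plus), with 2318 and 1527 CPM, and a 4-exon locus spanning 432346 to 434145 of 000709F (plus), with 1567 and 2036 CPM. The limit of 4-fold cuts through a continuous range. Just inside it lay loci on 008774F and 002548F, 4.006-fold and 4.014-fold higher in leaf, and on 007070F and 001401F, 4.003-fold and 4.007-fold higher in stem. Just outside, loci on 000043F and 002111F were both 3.998-fold higher in leaf, and those on 000028F and 002120F were 3.994-fold and 3.985-fold higher in stem. The counting intervals of all 8 contain 4.

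Few-exon loci differed most between the tissues. Of 1132 loci with 2 exons, 20.3% were higher in leaf (95% interval 18.0 to 22.8) and 7.24% higher in stem (5.80 to 8.91). At 3 to 4 exons the shares were 15.7% and 8.44%, at 5 to 9 exons 10.4% and 5.32%, and at 10 to 19 exons 8.10% and 4.05%. Of 156 loci with 20 or more exons, 3 were higher in leaf (1.92%, 0.398 to 5.52) and 6 in stem (3.85%, 1.42 to 8.18). The intervals treat loci as independent draws, which neighbours and gene copies need not be. The leaf share thus fell at every step of exon number, and the stem share fell from 3 to 4 exons onward. All classes by exon number, length and intron content hold only loci of matched length. The 4833 and 2410 multi-exon loci dropped for length were not classed, so whether they follow the same order was not tested. The median was 4 exons among the loci higher in leaf and among those higher in stem, and 6 among those within 4-fold.

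Loci with many exons that still differed were rare. In leaf, the one with most exons was a 24-exon locus spanning 342403 to 350465 of contig 002227F (plus), with 167 CPM in leaf and 35.1 in stem, 4.76-fold (4.62 to 4.91). Without scaling factors its log2 ratio was 1.89, under the limit. In stem it was a 29-exon locus spanning 116653 to 128216 of 006894F (plus), with 249 CPM in stem and 48.2 in leaf, 5.15-fold (5.02 to 5.29). The 2-exon loci on 008229F and 003373F had far larger folds, but were chosen for them, so the contrast says nothing about exon number.

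Short models differed more often than long ones. Under 1 kb of exon sequence, 1631 loci were compared, of which leaf was higher at 18.4% and stem at 8.09%. From 1 to under 2 kb the shares were 13.2% and 5.66% of 3869 loci, and from 2 to under 3 kb 7.82% and 5.30% of 1471. At 3 kb and over, leaf was higher at 3.704% of 567 loci (2.31 to 5.61) and stem at 5.29% (3.60 to 7.47). Median length was 1238 bases for loci higher in leaf, 1394 for loci higher in stem and 1563 for those within 4-fold. The share with a call in either direction went from 26.5% under 1 kb to 8.995% at 3 kb and over.

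**Figure D3:**
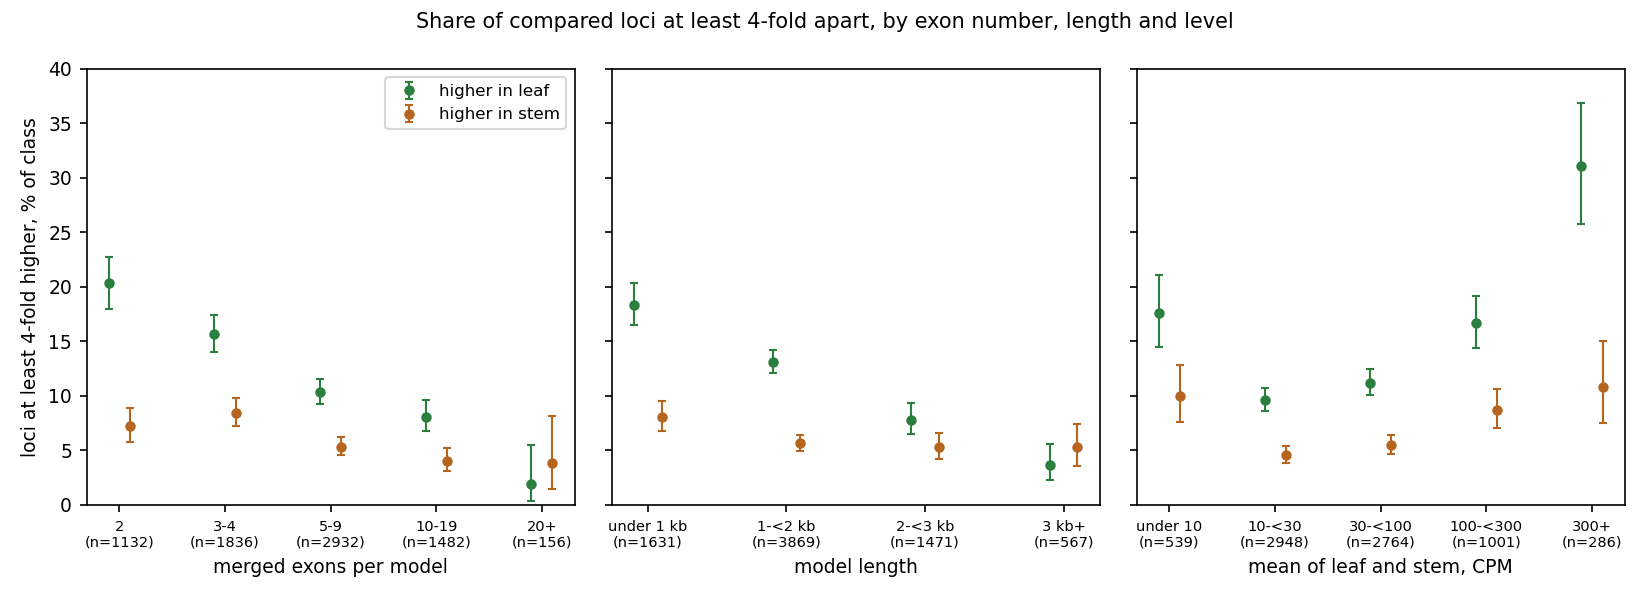
Percentage of compared loci at least 4-fold higher in leaf (green) or stem (brown) by number of merged exons, model length and mean CPM of both tissues, with 95% exact binomial intervals over loci. The leaf share falls from 20.3% at 2 exons to 1.92% at 20 or more, and rises to 31.1% at 300 CPM and over.

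The median and the upper side of the distribution moved with length, and the lower tail hardly did. The median log2 ratio of leaf over stem was 0.32 under 1 kb, 0.04 from 1 to under 2 kb, -0.25 from 2 to under 3 kb and -0.53 at 3 kb and over. The 95% quantile went from 4.15 to 1.79 between the shortest and longest class, and the 5% quantile from -2.38 to -2.01. With exon number the median went from 0.26 at 2 exons to -0.39 at 20 or more. Taken relative to the median of each length class, an alternative chosen after seeing the data, the leaf share fell from 15.4% to 8.11% and the stem share from 11.3% to 1.59% between the shortest and longest class. The share called in either direction, from 26.7% to 9.70%, was close to that without this step. At 20 or more exons, the shares became 4.49% in leaf and 1.28% in stem, which turned their order. Which tissue held the long calls was not stable: leaf took 69.4% of calls under 1 kb and 41.2% at 3 kb and over as counted, and 57.7% and 83.6% relative to the class medians.

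**Figure D4:**
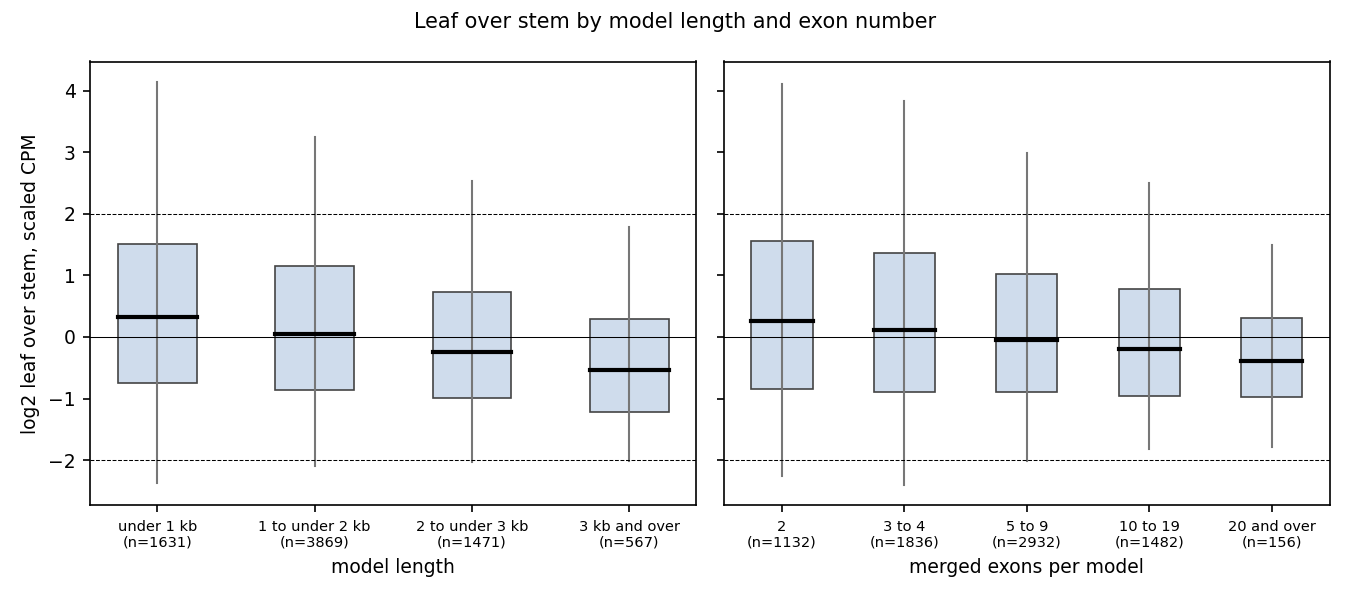
Log2 ratio of leaf over stem by model length (left) and exon number (right), with the median (thick line), quartiles (box) and the 5% and 95% quantiles (thin line) over loci; dashed lines mark 4-fold. The median falls from 0.32 to -0.53 with length and from 0.26 to -0.39 with exon number, and the boxes and lines shorten.

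Exon number and length were related across the compared loci (Spearman's rho 0.42, n = 7538 loci that share both libraries), so the classes were crossed. Under 1 kb, the share higher in leaf was 26.6% at 2 exons, 18.1% at 3 to 4 and 11.7% at 5 to 9. From 1 to under 2 kb it was 20.1%, 16.3% and 10.8%, and 10.6% at 10 to 19 exons. From 2 to under 3 kb there was no such order, with 7.41%, 9.0%, 9.31% and 6.16%. At 3 kb and over it fell again at each step, with 6.82%, 6.02%, 5.13%, 2.14% and 1.03%, though these rest on 3, 5, 8, 4 and 1 loci. The leaf share thus fell with exon number within each length class but that of 2 to under 3 kb, leaving aside classes of under 10 loci. It was also seen within classes of level: under 30 CPM the share went from 17.0% at 2 exons to 7.42% at 10 to 19, and at 100 CPM and over from 34.0% to 14.5%.

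Intron content, which the choice of loci did not use beyond the presence of introns, followed the same order. The median summed intron length was 1180 bases for loci higher in leaf, 1317 for loci higher in stem and 1769 for loci within 4-fold. With under 200 bases of intron, leaf was higher at 22.5% of 316 loci and stem at 12.3%. With 5000 bases and over, the shares were 5.68% and 4.01% of 774. Among 450 loci whose longest intron exceeded 5 kb, 30 were higher in leaf and 18 in stem, against 945 and 459 of all 7538 compared loci.

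Loci with a high mean CPM of both tissues were called more often. The share higher in leaf was 9.63% at a mean of 10 to under 30 CPM, 11.2% at 30 to under 100, 16.7% at 100 to under 300 and 31.1% at 300 and over. In stem the shares were 4.58%, 5.50%, 8.69% and 10.8%. Below a mean of 10 CPM they were 17.6% and 10.02%, but such a locus enters only if one tissue reaches 10 CPM, which favours unequal pairs by construction. The higher tissue weighs most in the mean, so a large fold by itself moves a locus to a higher class. Loci higher in leaf had a median of 7.93 CPM in stem, against 31.5 for loci within 4-fold. Those higher in stem had 10.4 CPM in leaf, against 29.4. Choosing loci by a fold of 4 or more makes the lower tissue low by construction, so these medians are no separate result. CPM also grows with model length. By mean CPM per kb, an alternative added after seeing the data, the leaf share went from 9.22% under 10 to 40% at 300 and over, and the stem share from 4.61% to 12.9%. Of 97 loci at 1000 CPM or more in the higher tissue, 46 were higher in leaf and 16 in stem, against 945 and 459 of all 7538.

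Strand and the number of compared loci on the contig made little difference. On the plus strand 13.0% were higher in leaf and 5.80% in stem, and on the minus strand 12.1% and 6.37%. The compared loci lay on 3222 contigs, 1666 of which held a single one. Where a contig held 1 such locus, 12.6% were higher in leaf and 7.20% in stem, and where it held 10 or more, 11.8% and 5.95%. Loci starting in the first 20 kb of a contig were higher in leaf at 15.9% of 372 (12.3 to 19.98), against 11.7% of 2199 that started at 500 kb or beyond (10.4 to 13.2). These intervals overlap. Loci overlapped by exons on the other strand were higher in leaf at 19.6% of 572 and in stem at 7.69%, against 11.96% and 5.96% of the others. The sources used here do not say whether the library kit kept strand, so the counts of such loci may mix both strands.

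Most called loci had no adjacent compared locus called in the same direction, 766 of those higher in leaf and 415 of those higher in stem. Of all loci higher in leaf and in stem, 210 and 120 were the only compared locus of their contig. Of 4316 pairs of adjacent compared loci on a contig, 94 were both higher in leaf, 22 both higher in stem and 62 split between the directions. Another 1206 pairs had 1 called locus. Over the members of all pairs 18.1% were called, against 18.6% of all compared loci, 12.5% for leaf and 6.09% for stem. How many such pairs or runs those shares alone would give was not worked out. Consecutive loci higher in leaf formed 77 runs of 2, 7 runs of 3 and 1 run of 4, and those higher in stem formed 22 runs of 2. The longest lay on contig 000195F, where 4 consecutive compared loci between 111311 and 888102 were higher in leaf by 111-fold, 10.01-fold, 5.15-fold and 6.06-fold. The last pair sat close together on the plus strand, at 883094 to 885236 and 885365 to 888102. Of the 22 pairs higher in stem, the most abundant lay on 002382F (minus strand), with 3-exon loci at 190078 to 191100 and 213988 to 215544, 4.20-fold and 10.6-fold higher. With factors from all loci the first of them had a log2 ratio of -1.88, under the limit. Contig 000842F held calls of both kinds, with leaf higher at 5 and stem at 4 of its 12 loci.

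Neighbours on the same strand were most alike at short distance. The 44 same-strand pairs under 100 bases apart had a median difference of 0.30 between their log2 ratios, and their ratios had a Pearson correlation of 0.97, given as a description of pairs that share both libraries. At 100 bases to under 1 kb the correlation was 0.56 over 176 pairs, at 1 to under 5 kb 0.37 over 223, at 5 to under 20 kb 0.17 over 278, and at 20 kb and over 0.03 over 1529. Pairs on different strands under 1 kb apart had a correlation of -0.05 over 209 pairs and a median difference of 1.37. Most of these ran tail to tail, 34 pairs under 100 bases apart and 151 at 100 bases to under 1 kb, with correlations of -0.25 and -0.06. The class under 100 bases includes pairs whose spans overlap. Its median gap was 0 for these 34 pairs and negative for 5 head-to-head pairs, against 79.5 bases for the 44 on the same strand. Counts of overlapping loci on different strands may mix both strands. The 19 head-to-head pairs at 100 bases to under 1 kb had a median difference of 0.64, with 2 pairs both higher in leaf and 0 split. At 1 to under 5 kb, 49 head-to-head pairs had a correlation of 0.44. Of the 220 same-strand pairs under 1 kb apart, 10 were both higher in leaf, 5 both higher in stem and 0 split, whereas among the 209 on different strands 4 were both higher in leaf, 0 both in stem and 9 split, of which 8 ran tail to tail. Over the members of these 220 and 209 pairs, 15.2% and 20.6% were called, against 18.1% over all adjacent pairs. Exon numbers were equal in 29 of the 220 pairs, against 443 of all 4316 adjacent pairs. Whether such pairs are separate genes or pieces of the same gene was not tested.

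**Figure D5:**
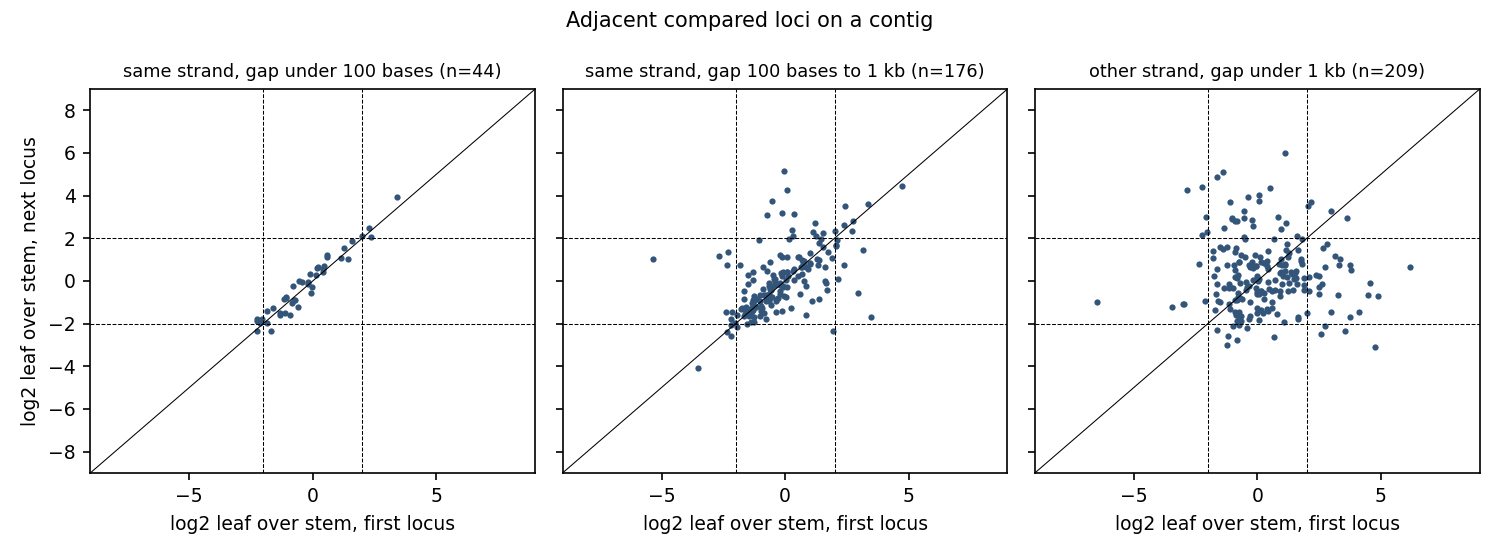
Log2 ratio of leaf over stem of adjacent compared loci, the first locus on the horizontal and the next on the vertical axis, for same-strand pairs under 100 bases apart, same-strand pairs 100 bases to 1 kb apart and other-strand pairs under 1 kb apart; dashed lines mark 4-fold. The 44 closest pairs follow the diagonal, and the 209 pairs on different strands, some with overlapping spans, do not.

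The apical meristem, the dividing tip from which leaves and stem arise, gave a readout that the choice of loci did not use. A matched multi-exon meristem model within the same length limit existed for 5409 of the 7538 compared loci, from a column of 135877224 counted fragments, and CPM values were scaled again over these 3 tissues. At the 659 loci higher in leaf, the median was 98.5 CPM in leaf, against 37.9 in meristem and 10.2 in stem. At the 301 higher in stem it was 82.2 CPM in stem, 20.9 in meristem and 13.7 in leaf. Over all 5409 leaf had a median of 36.2 CPM, meristem of 34.6 and stem of 33.9. For the loci higher in leaf, meristem thus stood midway on the log scale, with median log2 ratios of 1.58 for leaf over meristem and -1.52 for stem over meristem. For those higher in stem, meristem was nearer to leaf, with -0.60 for leaf over meristem and 1.96 for stem over meristem. These comparisons share columns and are given side by side only, and the wide gap between leaf and stem at called loci was what chose them.

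Meristem lay outside the leaf and stem levels at a minority of the called loci. It was above both at 100 of the 659 loci higher in leaf and below both at 87, and above both at 5 of the 301 higher in stem and below both at 70. Over all 5409 it was above both at 26.4% and below both at 28.9%, where the gap between leaf and stem is narrower. On the scale of 3 tissues, the locus on contig 000004F had 8208 CPM in leaf, 184 in stem and 66.0 in meristem. The locus on 001993F had 47.0 CPM in stem, with 0.170 in leaf and 0.173 in meristem. The locus on 008100F had 464 CPM in stem, 2.0 in leaf and 1.57 in meristem. On 002910F leaf had 1344 CPM, meristem 229 and stem 4.96. By length, the median log2 ratio of leaf over meristem went from 0.14 under 1 kb to -0.37 at 3 kb and over, and that of stem over meristem from -0.14 to 0.14.

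Models were less often alike in leaf and stem at loci higher in stem. Splice borders were identical in leaf and stem at 82.5% of the loci higher in leaf, 73.0% of those higher in stem and 77.3% of all compared. The model in the lower tissue was the shorter one at 62.8% of the loci higher in leaf and 68.4% of those higher in stem. At loci within 4-fold, the leaf model was shorter at 55.1% and the stem model at 40.6%. Dividing counts by model length left 932 calls for leaf and 443 for stem.

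Of the 2892 kept loci that were not compared because neither tissue reached 10 CPM, 230 had a ratio of at least 4 in favour of leaf and 185 in favour of stem. These low levels carry few fragments, and 8 kept loci had a count of 0 in a tissue. Across all 10430 kept loci the correlation of log2(CPM + 1) between leaf and stem was 0.78 (Pearson) and 0.77 (Spearman), and across the 7538 compared loci both were 0.53. Loci are not independent replicates, and the values describe these libraries only.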

How the data were processed

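RNA-seq fragments were counted by the authors with featureCounts 1.6.3 on paired reads with strand setting 1, per the file headers, against a gene model file of each tissue. The deposited values are raw counts. HISAT2 2.1.0 and StringTie 1.3.3b are named in the submitters' processing notes. Whether the library kit kept strand and the genome build beyond a masked, deduplicated Cascade assembly are not given in the sources used here. By the counter's default, fragments that map to several places are left out, so near-identical gene copies may be undercounted.

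Leaf and stem models were joined by shared exonic bases on the same strand. TMM factors over the kept loci, with table totals as library sizes, came from edgeR 4.0.16 in R 4.3.3, used for scaling only. Other steps used Python 3.11.15, pandas 2.3.3, numpy 2.4.6, scipy 1.17.1 and matplotlib 3.10.9. The fold limit was tried on simulated counts with counting error only and folds planted in leaf, which checks the arithmetic and not the calls. Folds used 3 counts in place of 0, a floor of 0.0184 CPM before scaling in leaf and 0.0239 in stem. Intervals are 95% Clopper-Pearson, and those on folds cover counting error only.

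Named loci are, for each direction, the 5 largest folds, the 5 highest levels, the one with most exons, the longest run and the 2 loci on either side of the limit, plus the 3 most abundant within 2-fold. The loci and classes were chosen with earlier results of these data known.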

Additional observations from a re-analysis of the deposited data

How the results depend on the processing

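No paired analysis was possible because neither tissue has more than a single column, which bears no number. Hence no replicate could be left out and no quasi-likelihood or DESeq2 test was run. Counts within 1.5 times of the 945 and 459 loci were found for both directions with RLE factors, the total over the kept loci, factors from all loci, a CPM minimum of 1 or none, lengths within 20 percent, counts per base, identical splice borders, at least 3 exons, joining by span, and leaving out loci that exons of the other strand overlap. The total over the kept loci leaves the ratios as they were and only lets more loci reach 10 CPM, 8376 in place of 7538. Without scaling factors 783 loci were higher in stem, the leaf share was 47.9% and the median log2 ratio -0.43. With factors from all loci these last were 76.6% and 0.20, and 333 loci were higher in stem. With no CPM minimum the leaf share was 64.6%. With a minimum of 50 CPM, 579 and 276 loci were higher in leaf and stem, and the median was 0.026. A fold of 2 gave 2012 and 1691 (leaf share 54.3%) and a fold of 8 gave 466 and 118 (79.8%). With lengths within 5 percent, 305 loci were higher in stem. With no limit on length, 1540 and 767 were higher in leaf and stem, and the median was 0.059. Single-exon loci gave 219 and 121, a leaf share of 64.4% and a median of 0.22. Fewer or more loci enter under the CPM, fold, length and exon settings by construction, and the cause of the other changes was not tested.

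Classes by the higher CPM gave 8.45% higher in leaf at 10 to under 30 CPM. By CPM per kb, a choice made after seeing the data like that of length-class medians, leaf shares were 9.22% under 10, 14.5% at 30 to under 100, 23.97% at 100 to under 300 and 40% at 300 and over, and stem shares 4.61% under 10, 5.56% at 10 to under 30 and 6.99% at 30 to under 100. Relative to the medians of the length classes, 929 and 478 loci were higher in leaf and stem. Leaf shares were then 15.4%, 9.99% and 8.11%, and stem shares 11.3%, 3.54% and 1.59%, at under 1 kb, 2 to under 3 kb and 3 kb and over, with a stem share of 1.28% at 20 or more exons. Within 5 kb, 35 adjacent pairs were called in the same direction, of 116 at any distance. The 39 named loci kept their direction in all 195 of their values under the alternatives, which was nearly fixed in advance. A change of factors shifts all loci by the same amount, and most named loci were chosen for ratios larger than that. Counts per base shift a locus only by the ratio of its model lengths. Among the values of called loci, 10 fell under 4-fold.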
